A study of Mus musculus with 24 samples.

Results

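Sox11, the transcription factor gene from which this account starts, was examined together with 6 other genes that mark newly born neurons or dividing cells in the adult brain, namely Sox4, Dcx, Neurod1, Eomes, Mki67 and Top2a. The 7 genes were taken by name from a table of 19661 genes. The set was chosen by a measured value, the higher level of Sox11 after training, and the question was whether the other 6 follow it. All 7 were in the table, and 4 of them (Sox11, Sox4, Dcx and Neurod1) reached the mean of 1 RPKM (reads per kilobase, scaled to library size) that a gene needed to enter the model, as did 12399 genes in all. Eomes, Mki67 and Top2a lay below that level and were compared by exact permutation tests.

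RNA from the dorsal hippocampus of 24 mice was sequenced, with 1 library per animal and 6 animals in each of 4 groups. Trained Baf53b+/- mice carried 1 copy of the targeted allele Actl6b<tm1Grc> on a background labelled B6J.129S6 and were killed 30 minutes after an object location session, a memory task about where objects stand in an arena. Home cage Baf53b+/- mice had the same genotype and no training. Trained wild-type mice were C57BL/6J and were killed at the same time after the same task, and home cage wild-type mice were C57BL/6J with no training. The 129S6 strain is named for the heterozygotes alone, so a difference of strain and one of Baf53b dose cannot be told apart. Home cage animals are the only controls, so learning cannot be told apart from the rest of the training session. Actl6b encodes BAF53b, a subunit of the chromatin remodelling complex of neurons. No ages are stated in the labels. Sex was read from the level of Ddx3y. By that measure home cage Baf53b+/- mice were 5 males and 1 female, and each of the other groups held 3 males and 3 females. Sex is therefore not balanced in comparisons with home cage Baf53b+/- mice. Both checks of the labels held, with Actl6b at 29.2 ± 1.64 RPKM in Baf53b+/- mice against 51.1 ± 1.99 RPKM in wild-type mice, and Fos at 13.5 ± 3.40 RPKM in trained mice against 1.88 ± 0.550 RPKM in home cage mice (SD, n = 12 each).

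New granule neurons are made throughout life in the dentate gyrus of mice. Stem cells that resemble radial glia give rise to dividing intermediate progenitors, which become neuroblasts, then immature neurons and at last granule cells that resemble their older neighbours. Eomes marks the intermediate progenitors, Mki67 and Top2a mark cells in division, Neurod1 drives granule cell differentiation and stays on in granule cells, and Sox4, Sox11 and Dcx are high in neuroblasts and immature neurons. Sox11 and Sox4 are closely related members of the SoxC group and can also be expressed outside that lineage. In whole tissue, fewer cells of a type and less RNA per cell cannot be told apart.

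Sox11 and Sox4 are the related pair of the set, and both are read from a single exon. The 250 bases before each start site are shown because the data concern the level of these transcripts. They come from RefSeq on build GRCm38.p6, which is not the build of the table (mm9), and both lie on the minus strand, at chr12:27342719-27342968 for Sox11 and chr13:28953700-28953949 for Sox4. Capitals mark matches to an E-box, CANNTG, which basic helix-loop-helix proteins such as NEUROD1 can bind, and to a CCAAT box, CCAAT, read on either strand.
Sox11: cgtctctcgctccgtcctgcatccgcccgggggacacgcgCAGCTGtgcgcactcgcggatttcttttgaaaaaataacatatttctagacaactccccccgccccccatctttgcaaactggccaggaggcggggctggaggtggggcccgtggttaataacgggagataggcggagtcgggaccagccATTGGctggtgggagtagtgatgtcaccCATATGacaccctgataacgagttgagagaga
Sox4: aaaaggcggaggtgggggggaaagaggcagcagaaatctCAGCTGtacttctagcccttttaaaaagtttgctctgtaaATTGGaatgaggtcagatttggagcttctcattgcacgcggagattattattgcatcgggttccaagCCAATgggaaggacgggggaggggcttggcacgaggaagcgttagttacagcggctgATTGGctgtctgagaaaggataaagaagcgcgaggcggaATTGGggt
The Sox11 window held 2 E-boxes and 1 CCAAT box, and the Sox4 window held 1 E-box and 4 CCAAT boxes. Such matches are common, since 66.0% of 27025 mouse promoters of the same length held an E-box and 34.5% held a CCAAT box. The cyclic AMP response element TGACGTCA, held by 1.62% of promoters, had no match in either window, and neither had its core TGACG (17.9%) or the CArG box (1.4%). The windows of the other 5 genes had no match to these 3 motifs either. A match, or its lack, in so short a window is a description of the letters.

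Positions are given on mm9 as in the table. Sox11 lay at chr12:28019133-28027583, a span of 8451 bases, and its values correspond to between 554 and 968 reads per library. Sox4 lay at chr13:29042599-29045551, Dcx at chrX:140290385-140367762, Neurod1 at chr2:79292798-79296793, Eomes at chr9:118387307-118395250, Mki67 at chr7:142881471-142908062 and Top2a at chr11:98854261-98885503. The library kit does not keep strand, and some overlapping genes lie on the same strand. Reads of Neurod1 can be mixed with those of the overlapping genes Cerkl and Gm26755, those of Sox4 with Gm26735, those of Eomes with the antisense gene Gm33460 those of Mki67 with Gm45240 and those of Top2a with the small RNA genes Gm23451 and Gm26394, whereas Sox11 and Dcx have no overlapping gene in the annotation. Library depth ran from 28.4 to 46.9 megareads. Mki67, the lowest of the set, had about 11.4 reads per kilobase of transcript at the median depth.

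Per kilobase of transcript, the levels spanned a wide range. Neurod1 was the highest with a mean of 13.6 RPKM over 24 animals, and its animals ran from 9.37 to 15.8 RPKM. Sox4 followed with a mean of 6.65 RPKM and a range from 5.57 to 7.73 RPKM. Sox11 averaged 2.43 RPKM, with a range from 1.83 to 3.34 RPKM, and Dcx averaged 2.17 RPKM, with a range from 1.81 to 2.51 RPKM. The ranges of Sox11 and Dcx overlapped, whereas those of Neurod1, Sox4 and Sox11 lay apart from each other. Eomes averaged 0.692 RPKM, Top2a 0.385 RPKM and Mki67 0.330 RPKM, and the ranges of these 3 genes overlapped too. Eomes varied most between animals, its highest value being 5.39 times its lowest, against 1.82 times for Sox11 and 1.38 times for Dcx.

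**Figure D1:**
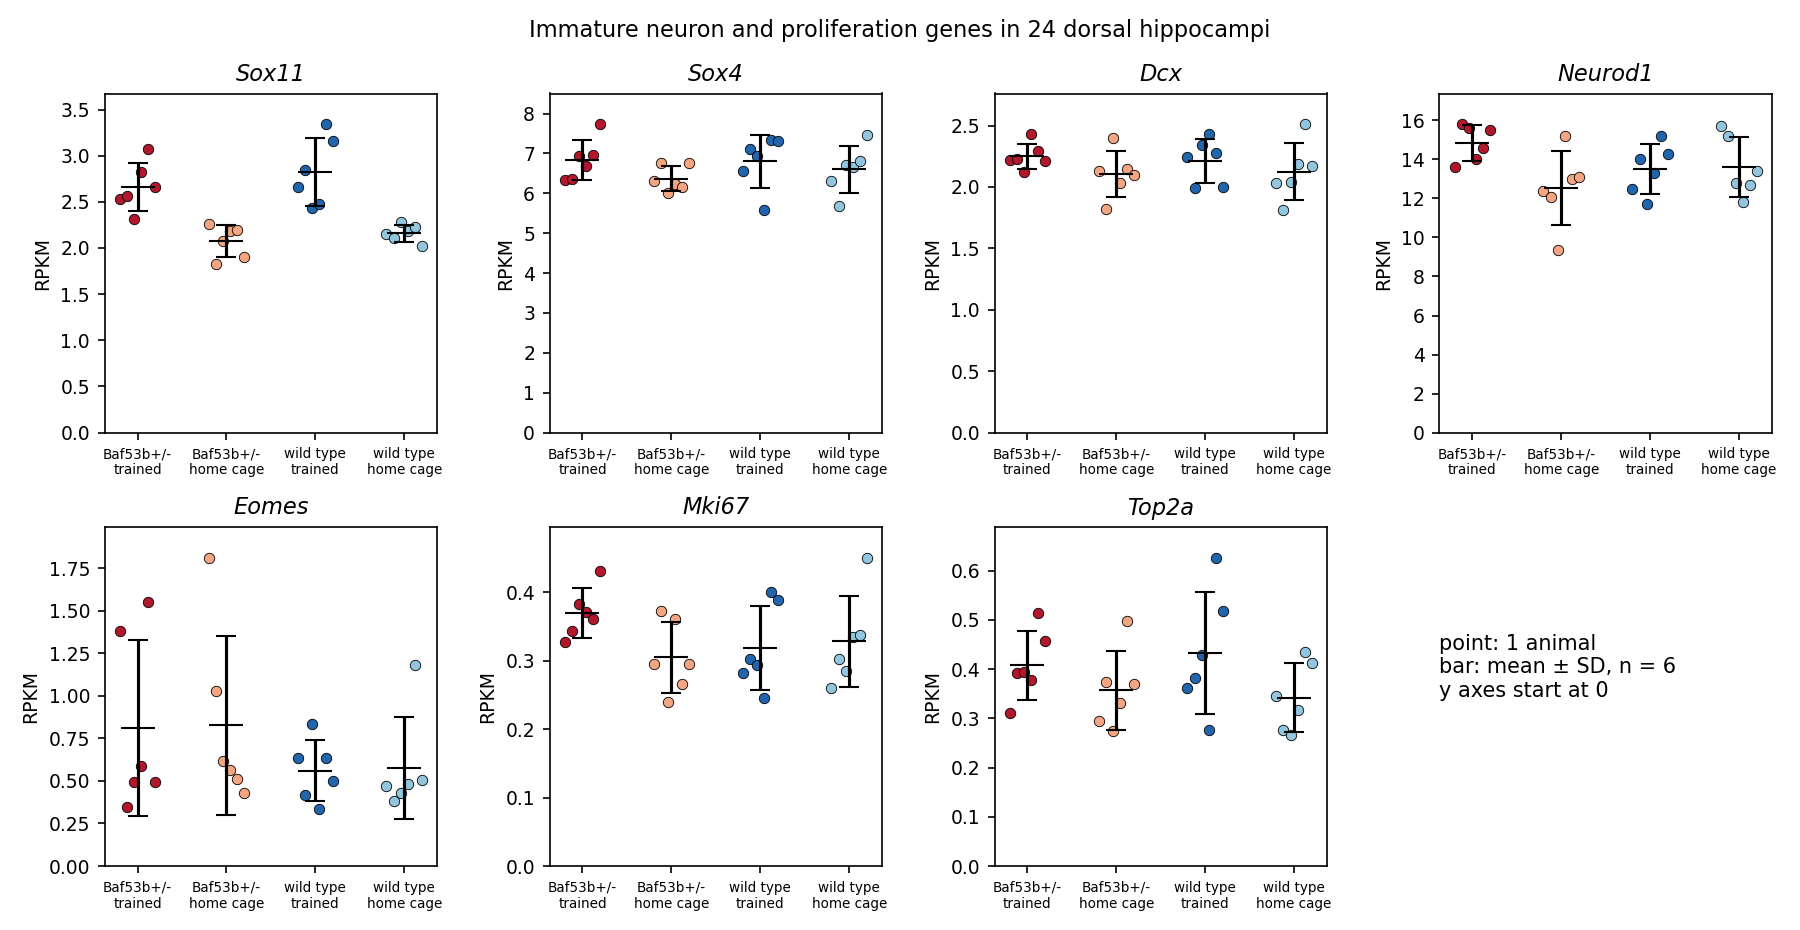
Level of each of the 7 genes in RPKM (vertical axes, each from 0) in the 4 groups of 6 animals, with 1 point per animal and bars for the mean and SD. Sox11 is the gene whose trained animals all lie above the home cage animals of their genotype, and Eomes has 1 home cage Baf53b+/- animal at 1.81 RPKM.

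Sox11 was higher in trained mice of both genotypes, which is the observation the set was built on and is described here with no test. In Baf53b+/- mice, the trained animals had 2.31, 2.61 and 3.07 RPKM (lowest, median and highest) and the home cage animals had 1.83, 2.13 and 2.26 RPKM. The groups did not overlap, and a gap of 0.0476 RPKM separated the lowest trained animal from the highest home cage animal. In wild-type mice, the trained animals had 2.43, 2.75 and 3.34 RPKM and the home cage animals had 2.02, 2.17 and 2.28 RPKM. Again every trained animal lay above every home cage animal, here with a gap of 0.144 RPKM. The means were 2.66 ± 0.263 RPKM in trained and 2.07 ± 0.171 RPKM in home cage Baf53b+/- mice, a fold of 1.28, and 2.82 ± 0.368 RPKM in trained and 2.16 ± 0.0944 RPKM in home cage wild-type mice, a fold of 1.30 (SD, n = 6 each). On a log2 scale of RPKM + 0.5, on which changes of low genes come out too small, the difference was 0.29 (SE 0.066) in Baf53b+/- mice, 0.31 (SE 0.066) in wild-type mice and 0.30 (SE 0.047) averaged over both. Groups that did not overlap, with the trained one higher, were found for 1% of the tested genes in Baf53b+/- mice, 1.08% in wild-type mice and 0.444% in both. Since Sox11 was picked for this difference, nothing is read from those shares. Leaving out any 1 animal gave between 0.26 and 0.33 in Baf53b+/- mice and between 0.27 and 0.35 in wild-type mice.

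The size of this response was close in both genotypes. The response of Sox11 in Baf53b+/- mice minus that in wild-type mice was -0.02 on the log2 scale, with a 95% interval from -0.21 to 0.18 (limma, Benjamini-Hochberg adjusted p = 0.993). That interval is wide beside the response itself, so it does not show that the genotypes responded alike.

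Sox11 was not tested for training, so the other 6 genes are set beside its difference and not beside a call. Of the 3 that entered the model, Sox4, Dcx and Neurod1, 0 of 3 passed a limma adjusted p under 0.05 in Baf53b+/- mice, where 1.03% of all genes passed, 0 of 3 in wild-type mice, where 1.08% passed, and 0 of 3 averaged over genotypes, where 4.17% passed. With such shares among all genes, 0 of 3 is no more than a count. At an unadjusted p under 0.05 there was 1 of 3 in Baf53b+/- mice, Neurod1, and none in wild-type mice or in the average. That level was reached by 1363 of 12399 genes in Baf53b+/- mice, by 1372 (11.1%) in wild-type mice and by 2086 (16.8%) in the average. The plot of training differences sets them beside Sox11.

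**Figure D2:**
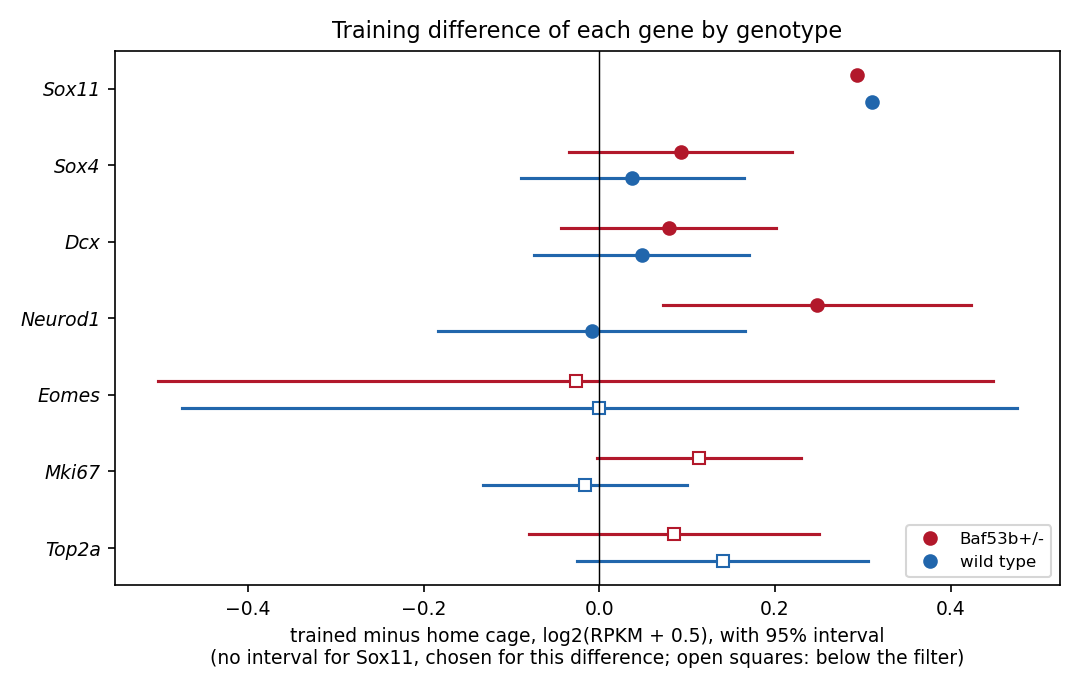
Difference between trained and home cage animals (horizontal axis, log2(RPKM + 0.5)) for each gene in Baf53b+/- mice (red) and wild-type mice (blue), with 95% intervals from limma; Sox11 has no interval because it was chosen for this difference, and open squares are the 3 genes below the filter, fitted without it. Neurod1 in Baf53b+/- mice, at 0.25, is the one interval among the other 6 genes that lies wholly above 0.

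Sox4, the close relative of Sox11, had small positive differences in both genotypes that did not pass. Trained Baf53b+/- mice had 6.33, 6.81 and 7.73 RPKM and home cage Baf53b+/- mice 6.00, 6.27 and 6.76 RPKM (lowest, median and highest). Here 3 trained animals lay above the highest home cage animal, and the rest overlapped. The difference was 0.09 (SE 0.06, limma adjusted p = 0.624) with a 95% interval from -0.03 to 0.22. Trained wild-type mice had 5.57, 7.02 and 7.33 RPKM and home cage wild-type mice 5.67, 6.68 and 7.45 RPKM, so that the trained range lay almost within the home cage range. The difference was 0.04 (SE 0.06, limma adjusted p = 0.88), and the interval averaged over genotypes ran from -0.02 to 0.16 around 0.07 (limma adjusted p = 0.496).

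Dcx encodes doublecortin, a microtubule-binding protein of migrating neuroblasts and young neurons. Trained Baf53b+/- mice had 2.12, 2.22 and 2.43 RPKM and home cage Baf53b+/- mice 1.82, 2.12 and 2.40 RPKM. Only 1 trained animal exceeded the highest home cage animal. Trained wild-type mice had 1.99, 2.26 and 2.43 RPKM and home cage wild-type mice 1.81, 2.11 and 2.51 RPKM, and here the trained animals lay within the home cage range. The differences were 0.08 (SE 0.06, limma adjusted p = 0.678) in Baf53b+/- mice and 0.05 (SE 0.06, limma adjusted p = 0.822) in wild-type mice. Averaged over genotypes, Dcx differed by 0.06 with a 95% interval from -0.02 to 0.15 (limma adjusted p = 0.488).

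Neurod1, a helix-loop-helix factor of granule cell differentiation, had the largest difference of the 3, in Baf53b+/- mice. Trained Baf53b+/- mice had 13.6, 15.1 and 15.8 RPKM and home cage Baf53b+/- mice 9.37, 12.7 and 15.2 RPKM. In this genotype 5 of 6 home cage animals lay below the lowest trained animal, and the sixth lay among the trained ones. The difference was 0.25 (SE 0.085, 95% interval 0.07 to 0.42), and it did not pass (limma adjusted p = 0.244, unadjusted p = 0.00748). Trained wild-type mice had 11.7, 13.6 and 15.2 RPKM and home cage wild-type mice 11.8, 13.1 and 15.7 RPKM. These ranges coincide almost wholly, and the difference was -0.01 (SE 0.085, limma adjusted p = 0.982). The response in Baf53b+/- mice minus that in wild-type mice was 0.26 with a 95% interval from 0.01 to 0.50, which did not pass (limma adjusted p = 0.985, unadjusted p = 0.0428). Leaving out home cage Baf53b+/- animal 2415, which had the lowest Neurod1 value of all 24 animals, gave a difference of 0.17 in Baf53b+/- mice.

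The dividing-cell genes were low everywhere. Mki67, which encodes the nuclear antigen Ki-67, had 0.327, 0.366 and 0.431 RPKM in trained Baf53b+/- mice and 0.239, 0.295 and 0.372 RPKM in home cage Baf53b+/- mice. Of the home cage animals 4 lay below the lowest trained animal. The fold of the means was 1.21 (two-sided exact permutation test, p = 0.0325), the one p under 0.05 among 12 such tests of the 3 low genes, none of them adjusted. With 1 animal left out p reached 0.0714 and exceeded 0.05 in 6 of 12 cases, those without trained animal 2414 or 2435 or home cage animal 2400, 2415, 2422 or 2424. In the limma model without a filter its adjusted p was 0.572. Without the 6 libraries rich in choroid plexus RNA, a choice made after the data were seen, the exact permutation p was 0.171. In wild-type mice the trained animals had 0.245, 0.298 and 0.400 RPKM and the home cage animals 0.260, 0.318 and 0.450 RPKM, a fold of 0.97 (exact permutation test, p = 0.812).

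Top2a, the topoisomerase of dividing cells, had 0.311, 0.393 and 0.514 RPKM in trained Baf53b+/- mice and 0.274, 0.350 and 0.497 RPKM in home cage Baf53b+/- mice. These groups overlapped, with a fold of 1.14 (exact permutation test, p = 0.249). In wild-type mice the trained animals had 0.277, 0.404 and 0.626 RPKM and the home cage animals 0.266, 0.331 and 0.435 RPKM. The 2 highest trained animals exceeded every home cage animal, and the fold of 1.26 was within the spread (exact permutation test, p = 0.156). Leaving out home cage Baf53b+/- animal 2422 brought p to 0.0455, and leaving out trained wild-type animal 2421 brought p to 0.0498, each by the exact permutation test. These were the lowest p of the 12 such fits in each genotype. The highest were 0.487 in Baf53b+/- mice and 0.316 in wild-type mice (exact permutation test). Without the 6 libraries rich in choroid plexus RNA, a choice made after the data were seen, the exact permutation p in Baf53b+/- mice was 0.0286. That is the smallest p that the remaining animals allow. Home cage animal 2422 (0.497 RPKM) and trained animal 2409 (0.311 RPKM) were among those left out.

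Eomes, the T-box factor of intermediate progenitors, had 0.346, 0.542 and 1.55 RPKM in trained Baf53b+/- mice and 0.429, 0.588 and 1.81 RPKM in home cage Baf53b+/- mice. In both groups 2 animals lay above 1 RPKM and the others near the wild-type values. Trained wild-type mice had 0.335, 0.567 and 0.834 RPKM and home cage wild-type mice 0.385, 0.477 and 1.18 RPKM. The folds for training were 0.979 in Baf53b+/- mice (exact permutation test, p = 0.957) and 0.974 in wild-type mice (exact permutation test, p = 0.935). With so wide a spread, a 95% interval from -0.50 to 0.45 on the log2 scale in Baf53b+/- mice allows large differences either way for Eomes.

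Genotype was the comparison the choice of genes did not use, and none of the 4 tested genes passed. Counts were 0 of 4 in the home cage and 0 of 4 after training, against 0.00807% of all genes in each, and 0 of 4 averaged over conditions, against 0.0242% of all genes (limma adjusted p under 0.05). None of the 4 had an unadjusted p under 0.05, against 3.52% of all genes in the home cage, 3.69% after training and 4.49% averaged over conditions. Sox11 averaged 2.37 ± 0.372 RPKM in Baf53b+/- mice and 2.49 ± 0.428 RPKM in wild-type mice (SD, n = 12 each), a difference of -0.06 with a 95% interval from -0.16 to 0.04 (limma adjusted p = 0.999). Its difference was -0.05 in the home cage (limma adjusted p = 0.999) and -0.07 after training (limma adjusted p = 0.993). The averaged differences were -0.02 for Sox4, 0.01 for Dcx and 0.01 for Neurod1, each with a limma adjusted p of 0.999. No gene of the table passed the test of the difference in response between genotypes (0%), although 309 of 12399 had an unadjusted p under 0.05.

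Groups overlapped for all 7 genes in both genotype comparisons. Groups of the genotypes that did not overlap were found for 0.0565% of tested genes in the home cage and 0.226% after training. Eomes had the largest fold of the set, 1.44 in the home cage (exact permutation test, p = 0.316) and 1.44 after training (exact permutation test, p = 0.346). The excess rested on 2 animals above 1 RPKM in each Baf53b+/- group, against 1 home cage wild-type animal at 1.18 RPKM. Without the 6 libraries rich in choroid plexus RNA, Eomes in the home cage was higher in Baf53b+/- mice by 0.55 RPKM, and p was 0.00794, the smallest that the remaining animals allow (exact permutation test). After training the difference was then -0.0234 RPKM (exact permutation test, p = 0.817). Those 6 libraries, left out after the data were seen, included home cage wild-type animal 2425 at 1.18 RPKM. Trained Baf53b+/- animals 2409 and 2429, at 1.38 and 1.55 RPKM, and trained wild-type animal 2412, at 0.834 RPKM, were left out too. So were home cage Baf53b+/- animals 2422 and 2424, at 0.51 and 0.429 RPKM, the lowest of their group. Both differences thus depend on which animals were left out. For Mki67 the genotype folds were 0.928 in the home cage (exact permutation test, p = 0.524) and 1.16 after training (exact permutation test, p = 0.117). For Top2a they were 1.04 in the home cage (exact permutation test, p = 0.740) and 0.944 after training (exact permutation test, p = 0.684).

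The wider lists of the lineage are described by their counts in the training comparison averaged over genotypes, where 3.26% of all genes passed as higher and 0.911% as lower, and where the median difference of all genes was 0.0036. Sox11 is left out of each count. Of 23 other tested genes of immature neurons, 0 passed, 16 were positive, and the median was 0.02. The nearest to the threshold were Elavl3, an RNA-binding protein gene of neurons, with 0.07 (SE 0.02, limma adjusted p = 0.068), and Stmn2, a stathmin gene of growing axons, with -0.10 (SE 0.04, limma adjusted p = 0.166). With the dentate marker score as a covariate 2 of these genes passed as higher and 1 as lower. The shares of all genes given above belong to the model without that covariate. These 2 counts therefore have no share beside them, and nothing is read from them. Prox1 is on this list and also among the markers of that score, so the genes counted and the covariate are not independent.

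Among 7 tested intermediate progenitor genes, 3 rose and none fell, with a median of 0.12, where 3.26% of all genes passed as higher. The list was chosen with earlier results of these data known, and 1 of the 3, Btg2, is counted among the 12 early genes too. Btg2, an antiproliferative gene that is also an activity-induced early gene, rose by 0.58 (SE 0.07, limma adjusted p = 7.95e-06), with 6.54 ± 1.22 RPKM in trained and 4.17 ± 0.451 RPKM in home cage mice. Gadd45g, a stress-responsive gene of the Gadd45 family, rose by 0.31 (SE 0.06, limma adjusted p = 0.00372), and Insm1, a zinc finger factor of neuronal progenitors, rose by 0.19 (SE 0.05, limma adjusted p = 0.0372). Btg2 and Gadd45g passed with any 1 animal left out, whereas the call of Insm1 ended in 14 of 24 such fits. Eomes itself was below the filter, and the other genes of the list that passed the filter, Neurod1 and Sox4 among them, did not pass the test.

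Of 19 tested stem cell and radial glia genes, 1 rose and 1 fell, 16 were positive (52.7% of all genes were), and the median was 0.06. Hes1, a repressor downstream of Notch, fell by 0.42 (SE 0.06, limma adjusted p = 4.56e-05), with 4.75 ± 0.600 RPKM in trained and 6.51 ± 0.589 RPKM in home cage mice (SD, n = 12 each). Nr2e1, an orphan nuclear receptor gene of neural stem cells, rose by 0.14 (SE 0.03, limma adjusted p = 0.0123), with 5.82 ± 0.398 RPKM in trained and 5.21 ± 0.242 RPKM in home cage mice. Closest behind them were Notch1 at 0.13 (limma adjusted p = 0.0545) and Hes5 at -0.22 (limma adjusted p = 0.231).

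Of the 40 cell cycle genes, 14 reached the filter and 1 rose. Ccnd2, a D-type cyclin gene, rose by 0.14 (SE 0.04, limma adjusted p = 0.0492), a call that ended in 18 of 24 fits with 1 animal left out. The list had a median of 0.03, and Ccnd1 (0.21, limma adjusted p = 0.112) and Ccne2 (-0.18, limma adjusted p = 0.12) did not pass. Mki67, Top2a and most other genes of the list were below the filter, so this count covers the more abundant of them.

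Within the Sox family, Sox11 stood with 13 other tested genes of which 1 rose and 2 fell. Sox8, a SoxE gene of glia, rose by 0.20 (SE 0.06, limma adjusted p = 0.0432), a call that ended in 16 of 24 fits with 1 animal left out. Sox17 and Sox18, SoxF genes of endothelium, fell by 0.26 (limma adjusted p = 0.0121) and 0.30 (limma adjusted p = 0.00584). Sox12, the third SoxC gene beside Sox4 and Sox11 and named for that after its value was seen, differed by -0.05 (SE 0.03, limma adjusted p = 0.365). The median of the 13 genes was 0.01. None of 5 endothelial markers passed (median 0.07), and of 6 markers of oligodendrocyte precursors 1 passed, Gpr17, a receptor of those cells, which rose by 0.25 (SE 0.07, limma adjusted p = 0.028). The part of these cells in the Sox8, Sox17 and Sox18 differences was not tested. The calls of Sox8, Sox17, Sox18, Insm1, Ccnd2 and Gpr17 ended when the 6 choroid-rich libraries were left out, with limma adjusted p between 0.0878 for Insm1 and Sox18 and 0.273 for Sox8. That setting has fewer animals, and calls over all genes went from 517 to 262 in it. The part of choroid plexus RNA in these calls was not tested.

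**Figure D3:**
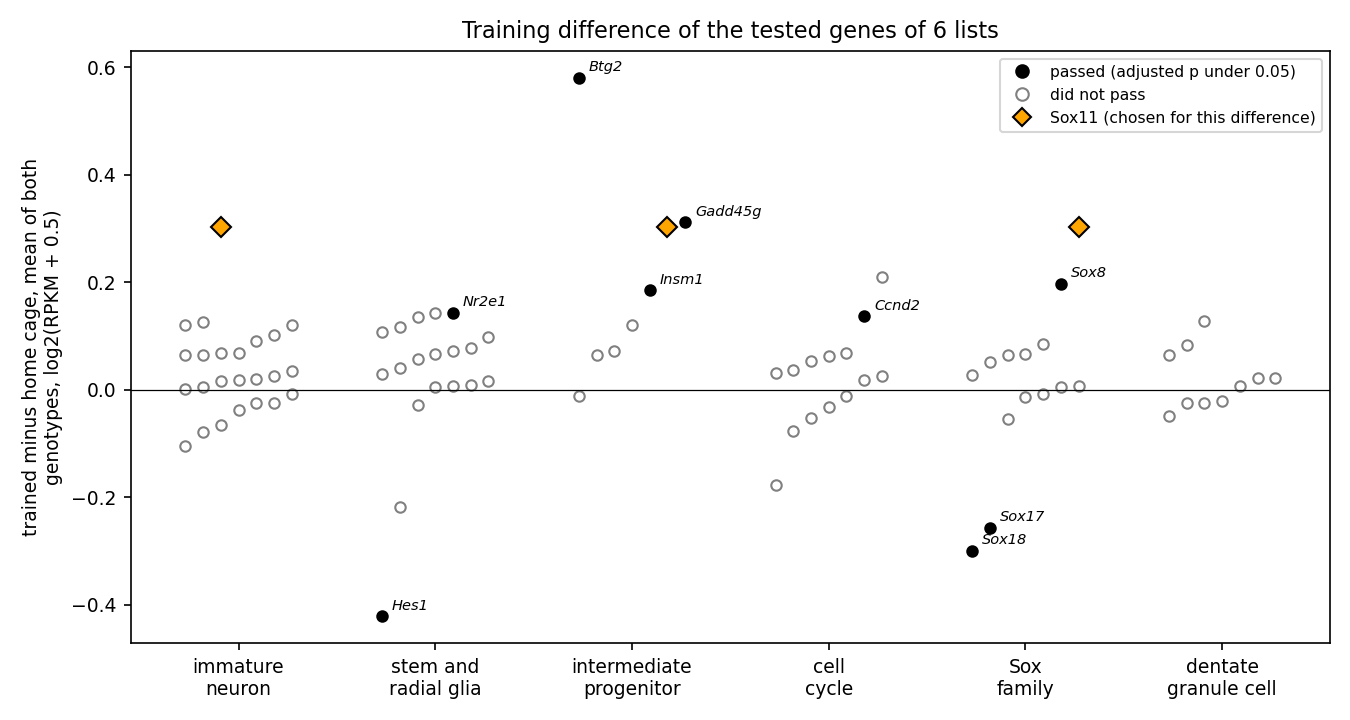
Training difference averaged over genotypes (vertical axis, log2(RPKM + 0.5)) of the tested genes of 6 lists (horizontal axis), with 1 point per gene; filled points passed a limma adjusted p under 0.05 and the diamonds are Sox11, which is on 3 of the lists. The immature neuron and dentate granule cell lists hold no filled point.

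Libraries differed widely in the level of choroid plexus genes. The summed level of 15 choroid plexus genes ran from 74.5 to 2848 RPKM in trained Baf53b+/- mice, from 65.4 to 5469 RPKM in home cage Baf53b+/- mice, from 90.7 to 1707 RPKM in trained wild-type mice and from 71.8 to 2035 RPKM in home cage wild-type mice. A mean log2 score above 3 was reached by 2 trained and 2 home cage Baf53b+/- libraries and by 1 trained and 1 home cage wild-type library. Without these 6 libraries Sox11 differed after training by 0.26 in Baf53b+/- mice and 0.35 in wild-type mice. The summed level of 10 dentate granule cell markers ran from 182 to 252 RPKM in trained Baf53b+/- mice, from 116 to 227 RPKM in home cage Baf53b+/- mice, from 156 to 241 RPKM in trained wild-type mice and from 162 to 243 RPKM in home cage wild-type mice. No marker of either list was at 0 in any group, and the dentate, CA1 and CA3 markers that define the tissue were present in every group. Of the other marker lists, 0 of 15 choroid plexus, 0 of 5 ependymal, 0 of 5 microglial, 0 of 4 thalamic, 0 of 5 striatal, 0 of 6 CA1, 0 of 5 CA3 and 0 of 6 tested subventricular genes passed in the averaged training comparison (limma), against 12 of 12 activity-induced early genes. The 8 genes listed as markers of the subventricular and olfactory lineage summed to between 25.5 and 36.3 RPKM in trained Baf53b+/- mice. The sums ran between 25.7 and 42.6 RPKM in home cage Baf53b+/- mice, 23.5 and 43.9 RPKM in trained wild-type mice and 22.8 and 40.6 RPKM in home cage wild-type mice. Whether the RNA of these genes came from that lineage was not tested.

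None of the 10 dentate markers passed for training in either genotype (limma). Of all genes 1.03% passed in Baf53b+/- mice and 1.08% in wild-type mice. In Baf53b+/- mice 10 of 10 markers were positive with a median of 0.17, where 49.3% of all genes were positive. In wild-type mice 0 of 10 were positive with a median of -0.13, where 57.0% of all genes were positive. Single animals carried much of these medians. Without home cage Baf53b+/- animal 2415 the median in Baf53b+/- mice was -0.00036 with 5 of 10 positive, and with 1 wild-type animal left out the median in wild-type mice ran from -0.22 (without home cage animal 2418) to -0.05 (without trained animal 2421, 1 of 10 positive). Averaged over genotypes the median was 0.01. The difference of Neurod1 was 0.17 in Baf53b+/- mice and 0.05 in wild-type mice once the dentate score was a covariate, with limma adjusted p of 0.186 and 0.779. The part of the amount of dentate gyrus in each dissection in the differences of Neurod1 was not tested further.

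Across animals, the levels of the genes were related to those scores after the group means had been taken out, which gave 14 relations over 24 animals (100000 permutations within groups, two-sided, Benjamini-Hochberg adjusted over the 14). Neurod1 was higher in animals with a higher dentate score, with a Pearson r of 0.822 (permutation p = 4e-05, adjusted p = 0.00056), a Spearman rho of 0.830 (permutation p = 3e-05, adjusted p = 0.00042) and r = 0.791 without the 2 animals farthest from the median. Dcx went the other way, with r = -0.572 (permutation p = 0.0127, adjusted p = 0.0444) and rho = -0.551 (permutation p = 0.0113, adjusted p = 0.0396). Without the 2 farthest animals r was -0.398, so that relation leaned on them. Sox11 had r = 0.277 (permutation p = 0.222, adjusted p = 0.32) and rho = 0.370 (permutation p = 0.111, adjusted p = 0.208) with the dentate score, and r = -0.068 (permutation p = 0.762, adjusted p = 0.821) and rho = -0.104 (permutation p = 0.648, adjusted p = 0.648) with the subventricular score. These values share library and depth within an animal.

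Eomes was higher in animals with a higher subventricular and olfactory score, with r = 0.765 (permutation p = 0.00015, adjusted p = 0.00105), rho = 0.492 (permutation p = 0.0104, adjusted p = 0.0396) and r = 0.705 without the 2 farthest animals. With the dentate score it had r = 0.008 (permutation p = 0.973, adjusted p = 0.973) and rho = -0.270 (permutation p = 0.207, adjusted p = 0.322). Neurod1 was inversely related to the subventricular score, with r = -0.610 (permutation p = 0.00408, adjusted p = 0.019), rho = -0.765 (permutation p = 0.00016, adjusted p = 0.00112) and r = -0.616 without the 2 farthest animals. No relation of Sox4, Mki67 or Top2a with either score had an adjusted p under 0.05.

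**Figure D4:**
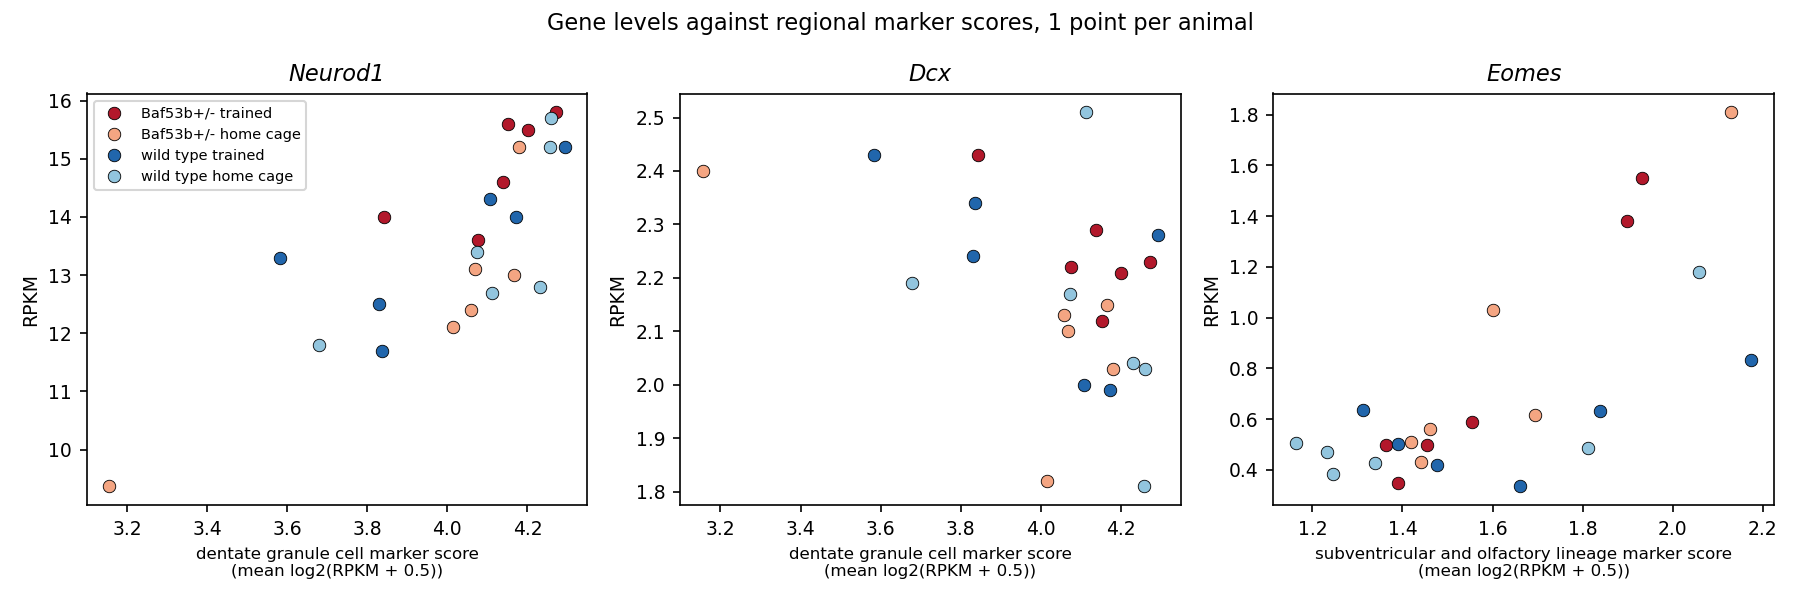
RPKM of Neurod1, Dcx and Eomes (vertical axes, not from 0) against the marker score of each animal (horizontal axes, mean log2(RPKM + 0.5) of 10 dentate or 8 subventricular and olfactory genes), with 1 point per animal coloured by group. Neurod1 rises with the dentate score, and Dcx is lower where that score is high. The Eomes values above 1 RPKM lie at subventricular scores from 1.602 (home cage Baf53b+/- animal 2401, 1.03 RPKM) to 2.129. All animals ran from 1.164 to 2.175 on that score.

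Among themselves, the genes formed 21 pairs, related in the same way and adjusted over the 21. Sox4 and Mki67 varied together, with r = 0.742 (permutation p = 0.00019, adjusted p = 0.00399), rho = 0.770 (permutation p = 0.00013, adjusted p = 0.00273) and r = 0.771 without the 2 farthest animals. Sox4 and Top2a had r = 0.651 (permutation p = 0.00212, adjusted p = 0.0223), rho = 0.669 (permutation p = 0.00118, adjusted p = 0.0124) and r = 0.534 without those animals. Mki67 and Top2a, the 2 genes of dividing cells, had r = 0.590 (permutation p = 0.0062, adjusted p = 0.0434), rho = 0.618 (permutation p = 0.00374, adjusted p = 0.0262) and r = 0.548 without the 2 farthest animals. All other pairs, each pair with Sox11 among them, had an adjusted p over 0.05, and of the pairs with Sox11 the nearest was that with Top2a (r = 0.458, permutation p = 0.0614, adjusted p = 0.258; rho = 0.277, permutation p = 0.241, adjusted p = 0.589; r = 0.249 without the 2 farthest animals).

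Genes most like Sox11 in pattern were sought over all tested genes, as a description with no test. Over the 24 animals the highest Pearson r with Sox11 belonged to Mcl1, an antiapoptotic Bcl2 family gene (0.893), Tiparp, an ADP-ribosyltransferase gene (0.882), Nup50, a nuclear pore gene (0.873), Csrnp1, a nuclear factor gene (0.854), and Arc, an early gene of active synapses (0.850). The median r over 12398 genes was 0.03. All 5 had positive training differences in both genotypes, between 0.14 for Nup50 and 1.98 for Arc, so their likeness includes the shared training difference. The other genes of the set had an r with Sox11 of 0.563 for Top2a, 0.378 for Neurod1, 0.377 for Sox4, 0.302 for Dcx, 0.279 for Mki67 and 0.067 for Eomes.

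With the group means taken out the order changed in part. Mcl1, the highest over 24 animals, still had an r of 0.7. The highest r then belonged to Apex1, a DNA repair endonuclease gene (0.857), Dimt1, a ribosomal RNA methyltransferase gene (0.751), and 3 genes known by clone names, 0910001L09Rik (0.745), 4833420G17Rik (0.742) and 4833424O15Rik (0.741). After training Apex1 differed by -0.03 in Baf53b+/- mice and 0.03 in wild-type mice, and Dimt1 by 0.0029 in Baf53b+/- mice and -0.0043 in wild-type mice. Of the early genes, Fos and Egr1 were then much less like Sox11, with an r of 0.821 over 24 animals and 0.192 without group means for Fos and of 0.816 and 0.091 for Egr1. For Arc these were 0.850 and 0.453. Among the set, Top2a kept the highest r of deviations with Sox11, 0.458, followed by Eomes at 0.243, Sox4 at 0.225, Neurod1 at 0.212, Mki67 at 0.204 and Dcx at 0.072.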

How the data were processed

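RNA from the dorsal hippocampus of 24 mice was extracted on RNeasy columns and made into TruSeq v2 libraries, which were pooled into 4 multiplexes and read for 50 cycles from a single end, per the labels' protocols. The authors deposited 1 table of RPKM values (reads per kilobase of gene, scaled to library size) on mm9, with 1 column per animal. CASAVA 1.8.2 and Bowtie 0.12.8 were used, per the submitters' processing notes. Neither the annotation, the total used for scaling nor the treatment of multimapping reads is stated there. The labels do not tie animals to pools, so no batch could be fitted.

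Depth was recovered from the RPKM steps of 964 single-exon genes. At those depths the share of values that came out whole (tolerance 0.05 reads) was 42.5% to 52.3%, against a median share of at most 8.8% over other totals. Whole reads were not recovered for other genes, so no count test was run.

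Values were taken as log2(RPKM + 0.5) and fitted with limma 3.58.1 in R 4.3.3 for all 12399 genes that averaged 1 RPKM or more, which hold 99.51% of the RPKM. The 4 groups shared a single model with a trend and robust empirical Bayes settings, tests were two-sided, and p-values were adjusted by Benjamini-Hochberg over all 12399 genes at 0.05. The model was also tested on simulated data. Eomes, Mki67 and Top2a were compared by two-sided exact permutation over 924 splits of 12 animals, where p cannot go below 0.00216. Whether animals shared litters or days is not given, so p-values measure the spread between these 24 samples. Relations across animals used deviations from group means, and scores are means of log2 values over a marker list.

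The genes and all lists were chosen with earlier results of these data known. In each comparison the 7 genes were named, from each list up to 4 genes that passed and up to 2 nearest to passing, and the 5 genes most like Sox11 by each measure. Sequences came from RefSeq and overlaps of genes from GENCODE M21. Alternatives were other pseudocounts, no filter, 2 other scalings, simpler empirical Bayes settings, fits of the compared groups alone, covariates for dentate score, choroid plexus score and sex, each animal left out, and, chosen after the data were seen, 6 libraries left out.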

Additional observations from a re-analysis of the deposited data

Results flagged for a closer look

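Within each group of 6, the gap between an extreme animal and its neighbour was set against the group's range and compared with Dixon's 95% critical value for the 7 genes and 3 marker scores, which made 40 tests, and chance alone picks out about 1 group in 20. The test picked out 4 values. Eomes was 1.18 RPKM in home cage wild-type animal 2425, the highest of its group. The same animal had the highest choroid plexus score of its group, 3.74. The dentate score was lowest at 3.16 in home cage Baf53b+/- animal 2415, which also had the lowest Neurod1 value, 9.37 RPKM. It was lowest at 3.68 in home cage wild-type animal 2418, where Neurod1 was 11.8 RPKM, the lowest of that group. The part of tissue composition in these values was not tested.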

How the results depend on the processing

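In every setting run, none of Sox4, Dcx and Neurod1 passed for training, for which Sox11 was not tested. Of these genes and Sox11, 0 of 4 passed for genotype or interaction. The training difference of Sox11 stayed positive, between 0.25 and 0.34 in Baf53b+/- mice and between 0.27 and 0.36 in wild-type mice over the settings that did not leave out a single animal, and between 0.281 and 0.32 averaged over genotypes with 1 animal left out (0.258 to 0.327 in Baf53b+/- mice, 0.268 to 0.346 in wild-type mice). No paired analysis was possible because the groups share no replicate numbers.

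Signs turned only for differences that did not pass. With the dentate covariate, genotype after training was -0.00864 for Sox4 and training in wild-type mice 0.0538 for Neurod1. Quantile normalization gave 0.00109 for the Sox11 interaction and -0.0107 for Dcx by genotype averaged over conditions, which was -0.00272 with sex as a covariate. With the 6 choroid-rich libraries left out, Neurod1 was -0.0192 by genotype averaged over conditions and 0.0131 for training in wild-type mice, and Dcx was 0.0241 by genotype in the home cage. In RPKM, that setting gave -0.0234 for Eomes by genotype after training, -0.005 for Top2a by genotype in the home cage and 0.051 for Eomes by training in wild-type mice.

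With 1 animal left out, log2 differences ran as follows. Training in wild-type mice ran from -0.0474 to 0.0332 for Neurod1 and from -0.00251 to 0.0897 for Sox4. The interaction ran from -0.0535 to 0.0263 for Sox11 and from -0.00965 to 0.0659 for Dcx. Genotype after training ran from -0.00298 to 0.0441 for Dcx and from -0.0423 to 0.0313 for Sox4. Genotype in the home cage ran from -0.0444 to 0.0312 for Dcx, and averaged over conditions from -0.0115 to 0.0263 for Dcx and from -0.018 to 0.0487 for Neurod1. In RPKM, Eomes ran from -0.165 to 0.179 for training in Baf53b+/- mice and from -0.0698 to 0.106 in wild-type mice, Mki67 from -0.0257 to 0.0151 for training in wild-type mice and from -0.0374 to 0.000792 by genotype in the home cage, and Top2a from -0.0549 to 0.0148 by genotype after training and from -0.0134 to 0.0334 in the home cage.

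The exact permutation p for Mki67 by training in Baf53b+/- mice was 0.171 without the 6 libraries. That for Top2a was 0.0286, the smallest that the remaining animals allow. Mki67 by genotype after training reached an exact permutation p of 0.039 without trained wild-type animal 2433. Counts over all genes moved most when those 6 libraries were left out, to 51 for training in Baf53b+/- mice, 65 in wild-type mice and 262 averaged over genotypes. Fits of the compared groups alone gave 85 in Baf53b+/- mice and 75 in wild-type mice. Genotype after training gave 2 genes with a pseudocount of 1, upper quartile scaling, simpler empirical Bayes settings or the dentate covariate, and genotype averaged over conditions gave 5 without a filter. The causes were not tested. Read totals were not recovered for Eomes, Mki67 and Top2a, which averaged under 1 RPKM, so their counting error is not known.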
